A study of Mus musculus with 3 samples.

Results

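RNA of 8 genes of lipoprotein particles and cellular lipid export was followed across the cell classes of the aged mouse hippocampus. They were Apoe, Clu and Apod (secreted apolipoproteins), Abca1 and Abcg1 (exporters), Lrp1 (an uptake receptor), and Soat1 and Plin2 (cholesterol esterification and lipid droplets). The genes were chosen by name, as 8 of the 31053 rows of the count tables, and all 8 were present. The samples were cells of dissociated hippocampus of wild-type C57BL/6 mice labelled as 2-year-old, run as 3 single-cell libraries (10x Chromium, counting the 3′ ends of transcripts) that form replicates 1, 2 and 3 of a single group. The tissue had been digested with papain and depleted of myelin with beads, and no allele or treatment is named. The series text speaks of 6 hippocampi without saying which animal entered which library, and replicate 3 is titled as 25 months old. No young or treated sample was there to compare with, so every comparison here is between cell classes or between cells of a class.

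In the brain, cholesterol does not cross from the blood in useful amounts and is made locally, to a large part by glia. Cells hand it on in lipoprotein particles whose main protein is the product of Apoe. ABCA1 loads such particles with cholesterol and phospholipid, ABCG1 adds further sterol, and lipoprotein receptors such as LRP1 take the particles up. Inside the cell, SOAT1 (also called ACAT1) turns surplus cholesterol into esters, and the ester droplets are coated by perilipins such as PLIN2. Abca1, Abcg1 and Apoe are known targets of the liver X receptors, nuclear receptors that sense oxysterols.

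Each cell was put in a class by the markers it held, none of which is among the 8 genes. Of 12100 cells kept, 10484 fell in the 7 classes described here: 2432 astrocytes, 1946 microglia, 102 border macrophages (the macrophages of vessel sheaths and meninges), 4868 endothelial cells, 642 ependymal cells, 186 pericytes and 308 oligodendrocyte precursor cells (OPCs). A further 1475 cells matched no class, and neurons (15 cells) and oligodendrocytes (8 cells) were nearly absent. Replicates 1, 2 and 3 held 45716237, 7185668 and 40377042 UMIs (unique molecular identifiers, each a counted RNA molecule). Every one of the 70 markers had its highest mean level in its own class, but placing cells by these markers brings that about. Of 37 further genes of these classes, not used to place cells, 36 also had their highest mean level in their own class. Border macrophages of replicate 2 were only 3 cells, so that class rests on replicates 1 and 3. Only 17 barcodes were found in more than 1 library.

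Levels are given as CPM, the UMIs of a gene per 1000000 UMIs of all genes, summed over the cells of a class in a library. The library is the replicate (n = 3, or 2 for border macrophages). Because the labels do not say that the libraries came from separate animals, their spread may be partly technical. CPM values of different genes are not compared with each other.

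**Figure D1:**
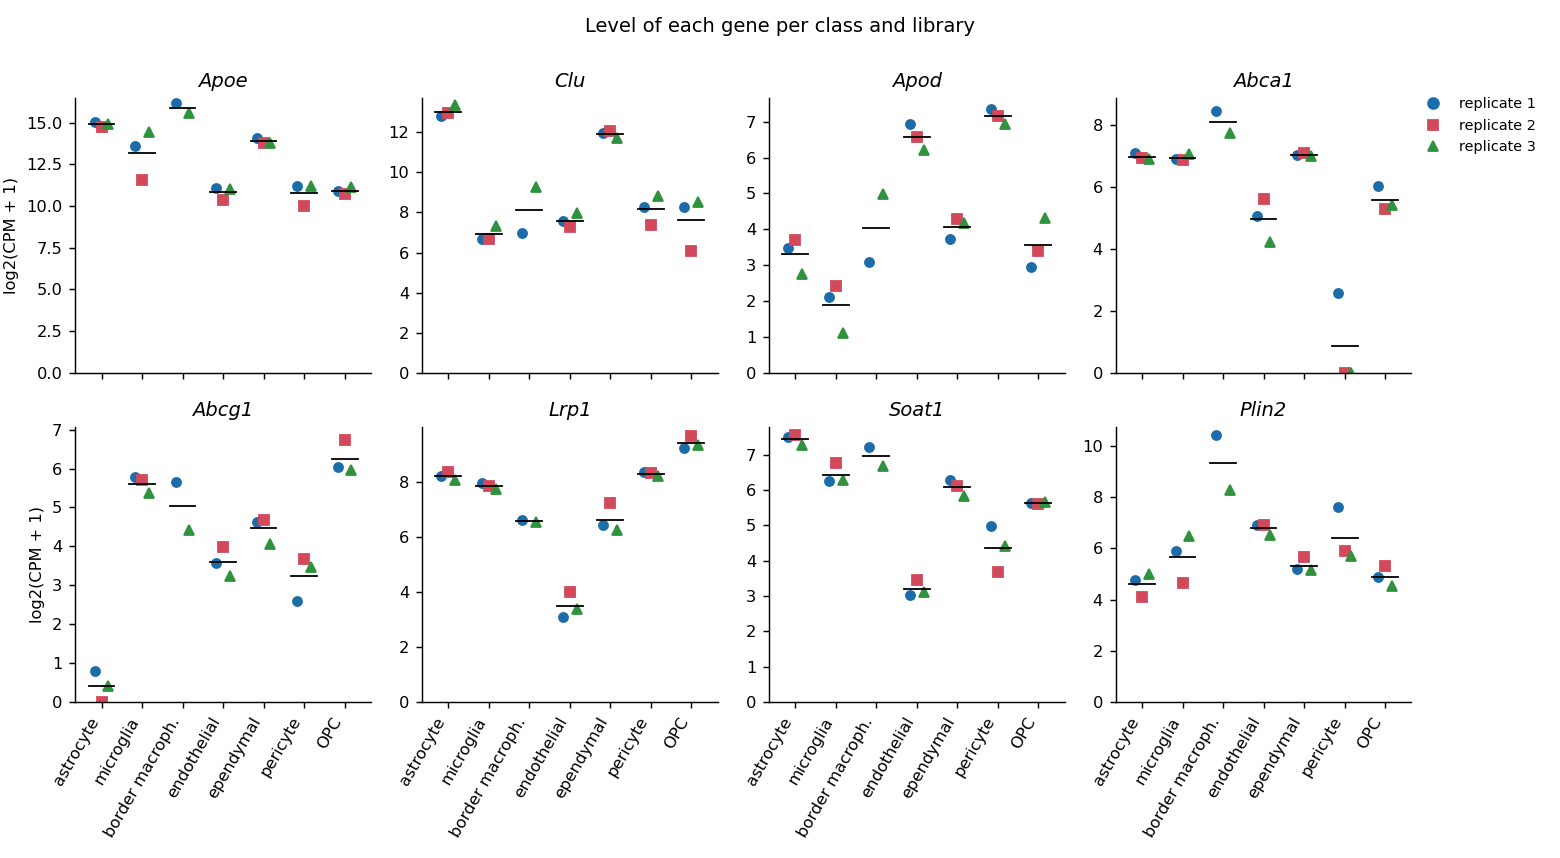
Level of each of the 8 genes, as log2(CPM + 1), in the 7 classes; a point is a library and the bar the mean over libraries. Apoe reached its highest level in border macrophages, Clu and Soat1 in astrocytes, Apod in pericytes, and Abcg1 and Lrp1 in OPCs; Abca1 had 1, 0 and 0 UMIs in pericytes.

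The 8 genes had several patterns over the classes rather than a common one. Each class was set against the unweighted mean of the other 6 on the log2 scale by edgeR's quasi-likelihood test over 13086 genes, with the library as a block, and a gene was called at a Benjamini-Hochberg adjusted p below 0.05. In astrocytes 5 of the 8 genes were higher (Apoe, Clu, Abca1, Lrp1, Soat1) and 3 lower (Apod, Abcg1, Plin2), where 31.2% of all genes tested were called higher and 19.4% lower. In microglia 5 were higher (Apoe, Abca1, Abcg1, Lrp1, Soat1) and 2 lower (Clu, Apod), against 28.9% and 17% of all genes. Border macrophages had 5 higher (Apoe, Abca1, Abcg1, Soat1, Plin2) and 1 lower (Clu), against 13% and 7.05%. In endothelial cells Apod and Plin2 were the 2 higher genes and 4 were lower (Apoe, Clu, Lrp1, Soat1), against 31.3% and 14.9%. Ependymal cells had 3 higher (Apoe, Clu, Abca1) and 2 lower (Lrp1, Plin2), against 30.3% and 20.4%. Pericytes had 2 higher (Apod, Lrp1) and 4 lower (Apoe, Clu, Abca1, Soat1), against 12.1% and 6.82%. OPCs had 2 higher (Abcg1, Lrp1) and 5 lower (Apoe, Clu, Apod, Soat1, Plin2), against 25.6% and 18.9%. These contrasts share their classes, so they are not independent of each other.

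**Figure D2:**
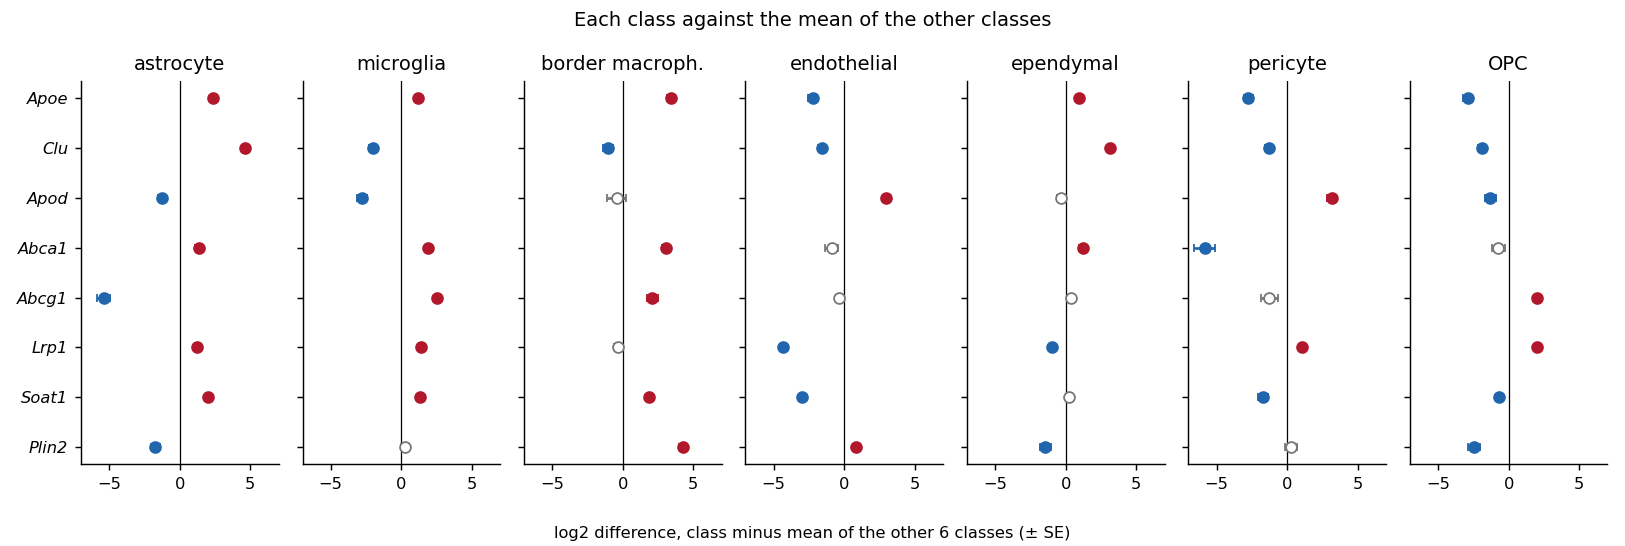
The log2 difference of each class from the mean of the other 6 classes, with its standard error, for the 8 genes; red is higher, blue lower, and open grey symbols were not called. Astrocytes had 5 genes higher and 3 lower, with Abcg1 at -5.41, and pericytes had Abca1 at -5.86.

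The scaling bears on these directions. TMM factors ran from 0.651 in microglia of replicate 1 to 1.496 in OPCs of replicate 2, so a fitted difference can lie above the ratio of CPM values for microglia and below it for OPCs. The median over all genes was -0.36 in the border macrophage contrast and within 0.12 of 0 in the other 6. With DESeq2 the share of calls that were higher was 41.1% in place of 63.0% for microglia, 38.2% in place of 67.7% for endothelial cells and 77.4% in place of 64.8% for border macrophages, and with RLE factors it was 52.9% for endothelial cells. With library totals alone, an alternative added after the data were seen, it was 33.9% for microglia, 47.0% for border macrophages, 57.3% for endothelial cells, 80.4% for pericytes and 83.0% for OPCs. That scaling moved the median over all genes to -0.55 in microglia, -0.64 in border macrophages, -0.06 in endothelial cells, 0.22 in ependymal cells, 0.18 in pericytes and 0.61 in OPCs. Under that scaling Apod and Soat1 were no longer called lower in OPCs (-0.71 and -0.10) and Soat1 was called higher in ependymal cells (0.39). Every call listed for the 8 genes kept its direction under TMM, RLE, DESeq2 and library totals, and beside the 2 OPC calls those lost were Clu in border macrophages and Plin2 in endothelial cells, both with DESeq2. In endothelial cells Abcg1 was also called lower with RLE (-0.61) and DESeq2 (-0.59).

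Apoe encodes the main apolipoprotein of brain tissue. The gene (ENSMUSG00000002985.16, protein-coding) lies on the minus strand of chr7:19696109-19699188 of mm10. Border macrophages held 72733 and 48821 CPM in replicates 1 and 3. Astrocytes held 32994, 26955 and 31379 CPM in replicates 1, 2 and 3, and ependymal cells 17425, 14109 and 13872 CPM. Astrocytes of all 3 libraries lay above the ependymal cells and below both libraries of border macrophages. Microglia held 12442, 3026 and 21880 CPM (mean 12449 ± 9427 SD), a wide spread for that mean, and overlapped the ependymal range. Endothelial cells (2135, 1329 and 2062 CPM), pericytes (2317, 1013 and 2304 CPM) and OPCs (1896, 1652 and 2227 CPM) formed a low tier whose ranges overlapped.

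Classes next to each other in the order of mean CPM were compared with the same test. Pairs of classes differed in many genes: the share of all genes called was 66.4% between astrocytes and microglia, 65.1% between microglia and ependymal cells, 62.2% between endothelial and ependymal cells, 58.3% between microglia and OPCs, 52.7% between ependymal cells and OPCs and 52.1% between astrocytes and ependymal cells. It was 37.8% between border macrophages and ependymal cells, 31% between astrocytes and pericytes, 29.6% between pericytes and OPCs, 27.8% between border macrophages and endothelial cells and 27.4% between endothelial cells and pericytes. For Apoe, astrocytes lay above ependymal cells by 1.22 ± 0.34 on the log2 scale (SE, edgeR adjusted p = 0.0031) and microglia above OPCs by 3.51 ± 0.38 (edgeR adjusted p = 7.8e-10). Border macrophages did not pass the test against astrocytes, with a difference of 0.89 ± 0.38 (edgeR adjusted p = 0.066), although their library ranges did not overlap. That difference was 0.14 without replicate 1, and it was called without replicate 2 (1.054), without replicate 3 (1.16), with RLE scaling (0.93), without the filter on low counts (0.74), at no more than 10% mitochondrial UMIs (0.98) and once microglia with disease-associated genes were left out (0.95). Ependymal cells and microglia differed by -0.20 ± 0.34 and were not separated, and neither were OPCs, pericytes and endothelial cells. Against the mean of the others, Apoe was higher by 2.37 ± 0.22 in astrocytes, 3.41 ± 0.26 in border macrophages, 0.95 ± 0.24 in ependymal cells and 1.18 ± 0.24 in microglia. In microglia that difference held in 2 of 3 libraries and was small on the CPM scale, where the geometric mean was 9375 CPM against 7403 CPM in the others. When microglia with disease-associated genes were left out, a choice made after the data were seen, it became -0.53 and was not called (edgeR adjusted p = 0.058).

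The 250 bases before the start of Apoe are shown because its start in RefSeq (GRCm38.p6) coincides with that of the annotation, and to set them beside those of Abca1 below. They lie at chr7:19699189-19699438, on the minus strand, 5′ to 3′. The letters of 4 motifs were searched on both strands. The E-box was searched as CACGTG. The TATA box was searched as TATAAA, at any distance from the start. The GC box was searched as GGGCGG. The core of a DR4 element, the repeat that liver X receptors are known to bind, was searched as the letters GGTTA and, after 5 bases of any kind, a further stretch. That further stretch was GGTCA. Only this form of the repeat was searched, so a window without a match may hold another form. Capitals mark matches, and this window held none. RefSeq promoter entries were matched for 6 of the 8 genes (not Clu and Abcg1).
Apoe: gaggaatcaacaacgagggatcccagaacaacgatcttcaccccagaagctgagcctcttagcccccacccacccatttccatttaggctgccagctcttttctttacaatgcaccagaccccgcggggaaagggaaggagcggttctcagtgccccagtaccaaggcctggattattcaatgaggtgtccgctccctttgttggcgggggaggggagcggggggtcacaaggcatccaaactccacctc

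The spread of Apoe over single cells differed between the classes. Each cell was thinned to 1000 UMIs, leaving out shallower cells, and 10 Apoe UMIs were taken as a mark of Apoe-high cells. In astrocytes 92.2%, 85.9% and 94.2% of cells in replicates 1, 2 and 3 reached that mark, and in border macrophages every cell did. Ependymal cells reached it in 87.3%, 73.7% and 72.2% of cells. Microglia did so in 15.8%, 9.17% and 27.5% of cells, and these few cells held 86.3%, 53.5% and 90.02% of all microglial Apoe UMIs. The median microglial cell held 1, 0 and 2 Apoe UMIs, the 90th percentile 23, 8.2 and 51, and the highest cell 174, 24 and 255. Between 8 and 12 UMIs, near the mark, lay 30, 6 and 53 of the 914, 109 and 824 microglia. Endothelial cells reached the mark in 0.879%, 1.14% and 0.505% of cells, and no pericyte did (0 of 64, 18 and 71 cells). Microglia of replicates 1 and 3 thus ran from cells with no Apoe UMI to cells above the highest astrocyte, which held 89 and 87 UMIs, while in replicate 2 the highest astrocyte held 56 UMIs and lay above all microglia.

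**Figure D3:**
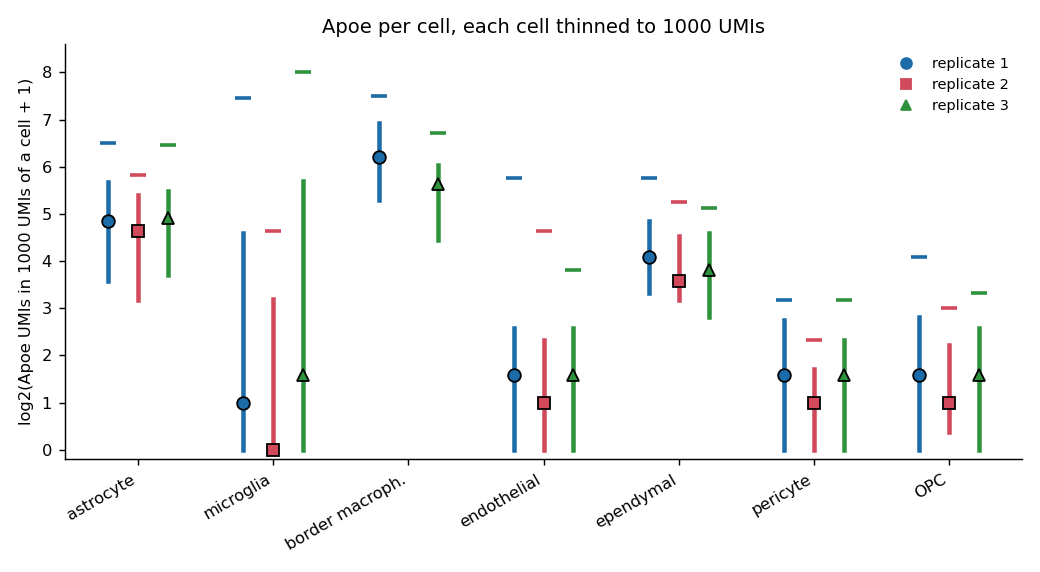
Apoe UMIs per cell after thinning each cell to 1000 UMIs, as log2(UMIs + 1); the symbol is the median of a library, the vertical bar runs from the 10th to the 90th percentile, and the dash is the highest cell. Microglia of replicate 3 spanned a 10th percentile of 0, a median of 2, a 90th percentile of 51 and a highest cell of 255, while border macrophages of replicates 1 and 3 had medians of 72.5 and 49.

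RNA freed from broken cells enters droplets and carries Apoe and Clu into cells of other kinds. As a measure of it, the level of 4 astrocyte genes not used to place cells was taken in each class, and the Apoe that astrocyte RNA would bring at that level was computed (a reference chosen after the data were seen). In OPCs the measured Apoe was 1.16, 1.19 and 1.41 times that amount, in lymphocytes 1.497 and 1.36 times in replicates 1 and 3, and in pericytes 1.83, 0.76 and 2.55 times, so the Apoe of OPCs and pericytes cannot be told apart from background. In endothelial cells the ratio was 7.22, 7.71 and 6.34, in ependymal cells 15.9, 13.5 and 14.8, and in microglia 31.9, 18.0 and 73.0. With the 10 astrocyte markers in place of these 4 genes the ratio was 3.18, 3.33 and 3.58 in endothelial cells, 2.75, 3.22 and 2.31 in ependymal cells, 17.4, 5.53 and 31.1 in microglia, 1.61, 1.55 and 1.89 in OPCs, 1.43, 1.20 and 2.24 in pericytes and 2.00 and 1.52 in lymphocytes. Border macrophage RNA at the level of the 10 border macrophage markers would bring 696 and 539 CPM of Apoe to microglia of replicates 1 and 3, and the measured level was 17.9 and 40.6 times that. At the level of the 6 further border macrophage genes it would bring 8257 and 10249 CPM, and the ratios were 1.51 and 2.13. These measures differ, and the part of border macrophage RNA in microglial Apoe was not tested. Nearly every OPC and endothelial cell held an Apoe UMI without thinning (100% and 98.6% as means over libraries), and so did pericytes (94.1%), so the share of cells with a UMI does not separate these classes. At 1000 UMIs the share was 100% in astrocytes, ependymal cells and border macrophages, 80.3% ± 7.7 (SD) in OPCs, 79.4% ± 6.8 in endothelial cells, 68.2% ± 11.1 in microglia and 65.1% ± 32.3 in pericytes.

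**Figure D4:**
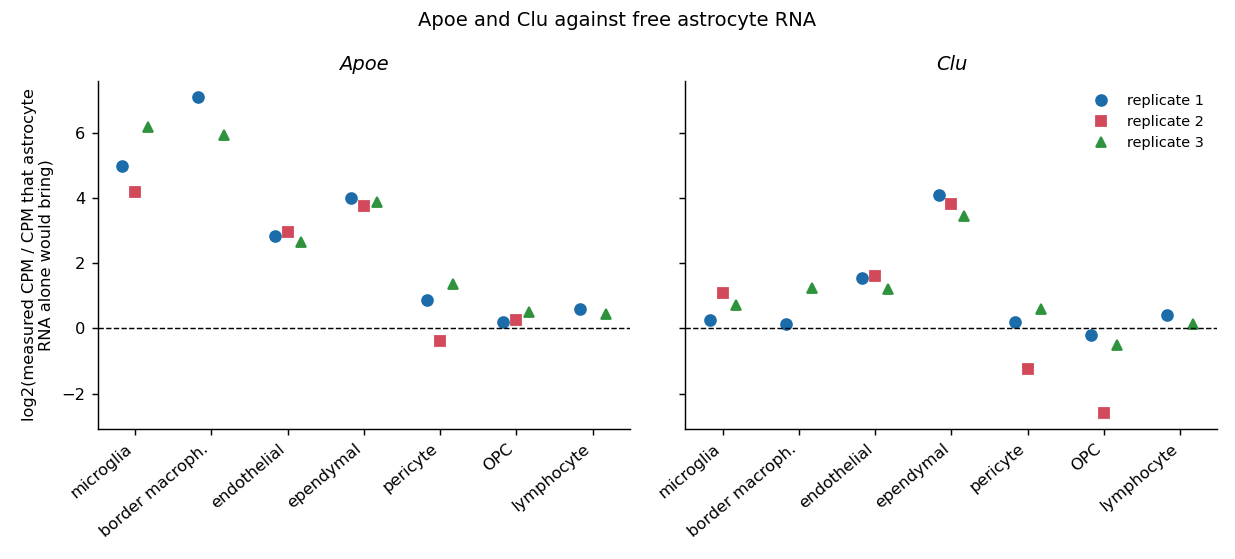
Measured Apoe (left) and Clu (right) in each class over the amount that free astrocyte RNA alone would bring at the level of 4 astrocyte genes, as log2 of the ratio, per library; the dashed line marks equality. OPCs and lymphocytes lie near the line for Apoe, endothelial cells at ratios of 6.34 to 7.71, and for Clu the ependymal cells stand at 11.04 to 17.2. By the 10 astrocyte markers, not plotted, endothelial cells were at 3.18 to 3.58 for Apoe and 1.30 to 1.33 for Clu, and ependymal cells at 1.72 to 3.32 for Clu.

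Clu encodes clusterin, a secreted chaperone that also travels on lipoprotein particles. The gene (ENSMUSG00000022037.15) lies on the plus strand of chr14:65968483-65981547. Astrocytes held 7049, 7824 and 10309 CPM in replicates 1, 2 and 3, and ependymal cells 4026, 4230 and 3399 CPM. The highest values elsewhere were 623 CPM in border macrophages of replicate 3 (124 CPM in replicate 1) and 453 CPM in pericytes of replicate 3. Clu was thus high in astrocytes and ependymal cells in every library, with no overlap with the other 5 classes. Astrocytes exceeded the mean of the others by 4.61 ± 0.19 on the log2 scale and ependymal cells by 3.13 ± 0.20. Astrocytes lay above ependymal cells by 1.27 ± 0.30 (edgeR adjusted p = 0.00070), and ependymal cells above border macrophages by 3.59 ± 0.42 (edgeR adjusted p = 1.9e-08). The 5 lower classes could not be separated from their neighbours in the order. A Clu UMI was found in 96.1% ± 1.4 of astrocytes and 91.7% ± 2.0 of ependymal cells at 1000 UMIs, and in 15.7% to 32.7% of cells in the other classes.

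Against free astrocyte RNA, Clu was at 0.88, 0.17 and 0.71 times the amount brought in OPCs, at 1.14, 0.43 and 1.52 times in pericytes, at 1.20, 2.11 and 1.64 times in microglia and at 1.33 and 1.10 times in lymphocytes. The Clu of these classes cannot be told apart from background. In OPCs the 4 genes would bring more Clu than was measured in each of the 3 libraries. They may thus set free astrocyte RNA too high there, and the Apoe ratios of OPCs above would then be lower limits. Endothelial cells stood at 2.95, 3.08 and 2.31 times by these 4 genes, but at 1.30, 1.33 and 1.31 times by the 10 astrocyte markers, near the 1.78 and 1.23 times of lymphocytes. Ependymal cells stood at 11.04 to 17.2 times by the 4 genes and at 2.97, 3.32 and 1.72 times by the 10 markers, which summed to 1808, 1649 and 1574 CPM in them. The ratios of both classes thus depend on the genes taken to measure free RNA. When endothelial cells were sorted by vessel-segment markers chosen after the data were seen, arterial cells (375, 38 and 201 cells) held 513, 277 and 504 Clu CPM and venous cells (180, 20 and 133 cells) 56.0, 60.1 and 111 CPM. Arterial cells were above venous cells in each of the 3 libraries, which is given without a test. Abcg1 had the opposite order, with 1.08, 2.35 and 2.65 CPM in arterial and 16.9, 15.02 and 13.6 CPM in venous cells. These values rest on 4, 1 and 5 arterial and 46, 3 and 18 venous UMIs, too few in replicate 2 to give an order. The lower call of Clu in border macrophages (-1.06 ± 0.34, edgeR adjusted p = 0.025) was lost without replicate 1 (-0.41), with DESeq2 (-0.94) and without the library block (-0.79).

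Apod encodes apolipoprotein D, a small lipid carrier of the lipocalin family that is not related in sequence to the product of Apoe. The gene (ENSMUSG00000022548.14) lies on the minus strand of chr16:31296192-31314808. Pericytes held 161, 141 and 122 CPM and endothelial cells 122, 93.7 and 72.8 CPM in replicates 1, 2 and 3. All other classes lay at or below 30.6 CPM in every library, with microglia at 3.35, 4.33 and 1.17 CPM. Apod was higher than the mean of the others by 3.17 ± 0.32 in pericytes and by 2.97 ± 0.18 in endothelial cells, and these 2 classes did not differ from each other by the test (0.17 ± 0.28). Endothelial cells lay above border macrophages by 2.93 ± 0.56 (edgeR adjusted p = 8.8e-05), a call that was lost without replicate 1 (1.45). The border macrophage level was made of 3 UMIs in each of replicates 1 and 3. Astrocytes lay above microglia by 1.29 ± 0.37 (edgeR adjusted p = 0.0030), which was not called without replicate 3 (0.80). A UMI was found in 17.8% ± 9.1 of pericytes and 8.44% ± 2.07 of endothelial cells at 1000 UMIs, and in 0.573% ± 0.301 of microglia.

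Among endothelial cells, Apod was lowest in arterial cells, with 29.4, 28.2 and 26.5 CPM, and highest in venous cells, with 330, 170 and 148 CPM in replicates 1, 2 and 3. Cells with no marker of the arterial, venous or tip-like kind held 114, 137 and 87.1 CPM. The order was the same in the 3 libraries, and no test was made because the segment markers were chosen after the data were seen. Far more Apod was found in 28 fibroblasts outside the 7 classes, with 6210 UMIs or 41125 CPM over the 3 libraries (95% Poisson interval 40109 to 42161, counting error only). The 8 oligodendrocytes held 114 Apod UMIs, or 3282 CPM (interval 2707 to 3943). Fibroblast RNA at the level of its 8 markers in a class, a reference added after the data were seen and taken from all 28 fibroblasts, would bring endothelial cells 7.10, 6.64 and 2.18 Apod CPM, and the measured level was 17.2, 14.1 and 33.4 times that. In pericytes the same markers summed to 322, 436 and 366 CPM, with 3 or 4 of the 8 at 0, and the ratio was 0.21, 0.14 and 0.14. Fibroblast RNA at that level would bring 763, 1032 and 867 Apod CPM, more than pericytes held. These markers therefore cannot gauge fibroblast RNA in pericytes, and its part in pericyte Apod was not tested. No Apod UMI was found in 40 lymphocytes, where 3 UMIs would be 17.6 CPM, or in 15 neurons.

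Abca1 encodes the exporter that starts a lipoprotein particle. The gene (ENSMUSG00000015243.4) lies on the minus strand of chr4:53030787-53159895. Border macrophages held 350 and 215 CPM in replicates 1 and 3. Astrocytes (136, 123 and 119 CPM), ependymal cells (131, 136 and 129 CPM) and microglia (120, 118 and 133 CPM) had overlapping ranges of CPM. OPCs held 65.0, 38.2 and 42.1 CPM and endothelial cells 32.5, 48.1 and 17.8 CPM. Pericytes held a single UMI in 186 cells, where 3 UMIs would have been 35.3 and 15.3 CPM in replicates 2 and 3, inside the endothelial range or just below it.

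Border macrophages exceeded ependymal cells by 1.55 ± 0.30 (edgeR adjusted p = 7.9e-05; not called without replicate 1, at 0.86), and microglia exceeded OPCs by 2.23 ± 0.28 (edgeR adjusted p = 2.5e-08). Of the 3 classes between them, microglia exceeded ependymal cells by 0.56 ± 0.23 after scaling (edgeR adjusted p = 0.037). By CPM the order was the reverse, with means of 124 in microglia and 132 in ependymal cells, and microglia were lower in replicates 1 and 2. The direction of this call thus depends on the scaling factors. Astrocytes did not pass the test against ependymal cells (0.10 ± 0.24) or microglia (-0.46 ± 0.22, edgeR adjusted p = 0.070). Endothelial cells exceeded pericytes by 4.26 ± 0.98 (edgeR adjusted p = 0.00084), a fitted difference that rests on the single pericyte UMI. Against the mean of the others Abca1 was higher by 3.03 ± 0.29 in border macrophages, 1.87 ± 0.22 in microglia, 1.34 ± 0.24 in astrocytes and 1.22 ± 0.26 in ependymal cells. In endothelial cells it stood at -0.88 ± 0.47 and was not called, ran from -1.25 without replicate 2 to 0.09 without replicate 1, and was called lower with DESeq2 (-1.11).

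The stretch before the start of Abca1 is shown because it held a match to the DR4 core. It lies at chr4:53159896-53160145 of GRCm38.p6, on the minus strand, and is written 5′ to 3′ with matches in capitals. The DR4 core matched on the other strand as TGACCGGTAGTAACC, with its first base 67 bases before the start. Among 32851 RefSeq promoter windows of the same length, 15 (0.0457%) held this core. That share belongs to the letters chosen and does not say how rare DR4 elements are. The window also held CACGTG at 147 bases (a 6.02% share of all windows), TATAAA at 29 bases (12.4%) and GGGCGG at 163 and 97 bases (32.7%). No match overlapped another, and a match is a description of letters, not of binding.
Abca1: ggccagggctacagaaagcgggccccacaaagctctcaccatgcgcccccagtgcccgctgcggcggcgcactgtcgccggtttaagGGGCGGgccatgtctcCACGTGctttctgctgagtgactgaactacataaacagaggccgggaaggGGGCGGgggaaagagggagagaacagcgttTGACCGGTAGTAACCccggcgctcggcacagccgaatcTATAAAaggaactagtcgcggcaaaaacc

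Abcg1, whose product passes sterol on to particles that already carry lipid, had another order. The gene (ENSMUSG00000024030.7) lies on the plus strand of chr17:31057675-31117988 and overlaps the predicted gene Gm25447 on the same strand. OPCs held 65.0, 105 and 61.0 CPM and microglia 54.0, 50.8 and 40.4 CPM. Border macrophages held 49.6 and 20.4 CPM (20 and 2 UMIs in replicates 1 and 3) and ependymal cells 23.9, 24.7 and 15.8 CPM. In astrocytes Abcg1 was nearly undetected, with 5, 0 and 2 UMIs in 1490, 110 and 832 cells, or 0.748 and 0.332 CPM in replicates 1 and 3, with none in replicate 2, where 3 UMIs would be 6.07 CPM. Astrocytes, whose Abca1 was not separated from that of microglia, thus lay far below them for Abcg1. Both genes were called higher in microglia and border macrophages.

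Against the mean of the others, Abcg1 was at -5.41 ± 0.45 in astrocytes (edgeR adjusted p = 3.2e-12), 2.56 ± 0.17 in microglia, 2.00 ± 0.22 in OPCs and 2.08 ± 0.39 in border macrophages. The astrocyte value rests on 7 UMIs in all. The order put OPCs above microglia by CPM, while the scaled difference was -0.48 and not called. Border macrophages lay above ependymal cells by 1.45 ± 0.40 (edgeR adjusted p = 0.0045) and ependymal above endothelial cells by 0.65 ± 0.24 (edgeR adjusted p = 0.021). Neither call held without replicate 1 (0.40 and 0.55), and the latter was also lost without replicate 3 (0.61), without the block (0.53) and without the filter on low counts (0.60). The border macrophage value against the others was likewise not called without replicate 1 (0.96). Astrocytes lay below pericytes, the class next above them, by a log2 of 3.56 ± 0.99 (edgeR adjusted p = 0.0054), a call lost without replicate 3 (2.91), and the pericyte level was made of 4 UMIs. A UMI was found in 5.89% ± 1.29 of microglia, 3.08% ± 2.82 of OPCs and 0.0533% ± 0.0924 of astrocytes at 1000 UMIs, and in 27.6%, 35.9% and 0.192% of them without thinning.

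Lrp1 encodes a large endocytic receptor that binds the product of Apoe and many other ligands. The gene (ENSMUSG00000040249.15) lies on the minus strand of chr10:127538161-127621148 and overlaps the antisense gene Gm16217. OPCs held 601, 812 and 654 CPM in replicates 1, 2 and 3. Pericytes (332, 318 and 300 CPM), astrocytes (297, 332 and 270 CPM) and microglia (247, 228 and 215 CPM) came next. Ependymal cells held 84.7, 148 and 75.7 CPM, border macrophages 96.8 and 91.9 CPM, and endothelial cells 7.46, 14.96 and 9.30 CPM. OPCs were above and endothelial cells below all other classes in every library.

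Lrp1 was higher than the mean of the others by 2.00 ± 0.15 in OPCs, 1.37 ± 0.15 in microglia, 1.22 ± 0.15 in astrocytes and 1.02 ± 0.19 in pericytes, and it stood at -4.33 ± 0.22 in endothelial cells. OPCs exceeded pericytes by 0.84 ± 0.23 (edgeR adjusted p = 0.0050), with an adjusted p of 0.052 by the same test without replicate 2. Pericytes, astrocytes and microglia were not separated. Microglia exceeded ependymal cells by 1.99 ± 0.23 (edgeR adjusted p = 2.1e-09), and border macrophages exceeded endothelial cells by 3.42 ± 0.34 (edgeR adjusted p = 4.5e-10). Thinned shares of cells with a UMI followed this order at the ends, with 53.9% ± 9.1 of OPCs and 1.68% ± 0.92 of endothelial cells. Outside the 7 classes, fibroblasts held 821 CPM (95% Poisson interval 683 to 979).

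Soat1 encodes the enzyme that esterifies cholesterol for storage. The gene (ENSMUSG00000026600.12) lies on the minus strand of chr1:156424525-156474331 and overlaps Gm37648 on the other strand. Astrocytes held 181, 186 and 152 CPM, border macrophages 146 and 102 CPM and microglia 75.8, 107 and 77.0 CPM. Ependymal cells held 76.5, 67.9 and 55.6 CPM and OPCs 48.5, 47.8 and 49.4 CPM. Pericytes (30.2, 11.8 and 20.3 CPM, 11 UMIs in all) and endothelial cells (7.13, 9.81 and 7.68 CPM) were lowest. Astrocytes did not pass the test against border macrophages (0.11 ± 0.25, edgeR adjusted p = 0.81), nor endothelial cells against pericytes (-1.13 ± 0.48, edgeR adjusted p = 0.084). Soat1 was higher than the mean of the others by 1.99 ± 0.14 in astrocytes, 1.87 ± 0.25 in border macrophages and 1.35 ± 0.14 in microglia, and stood at -3.02 ± 0.20 in endothelial cells and -1.70 ± 0.36 in pericytes. The border macrophage call was lost without replicate 1 (1.29). Microglia exceeded ependymal cells by 0.98 ± 0.19 (edgeR adjusted p = 4.2e-05) and ependymal cells exceeded OPCs by 0.77 ± 0.24 (edgeR adjusted p = 0.0076), and with library totals alone neither was called (0.31 and 0.42). The latter was also lost without replicate 1 (0.58). The lower call in OPCs (-0.69 ± 0.21) had the direction of the CPM values in 1 of 3 libraries, and it was lost without replicate 1 (-0.46), as was that of Apod in OPCs (-0.67).

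Plin2 encodes the coat protein of lipid droplets that most cells carry. The gene (ENSMUSG00000028494.12) lies on the minus strand of chr4:86648386-86670060. Border macrophages held 1370 CPM in replicate 1 and 306 CPM in replicate 3, both above every other class of the 7 in any library. Endothelial cells held 120, 119 and 91.0 CPM, and pericytes 196, 58.9 and 50.9 CPM. Microglia held 59.1, 23.8 and 87.6 CPM. Astrocytes (26.3, 16.2 and 30.9 CPM), OPCs (28.2, 38.2 and 21.8 CPM) and ependymal cells (35.4, 49.4 and 34.3 CPM) were low. Astrocytes, called higher for Soat1, thus held little Plin2, and endothelial cells, called lower for Soat1, held more Plin2 than astrocytes in every library.

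Against the mean of the others, Plin2 was higher by 4.25 ± 0.30 in border macrophages and by 0.87 ± 0.26 in endothelial cells, the latter not called with DESeq2 (0.65) or without replicate 2 (0.62). It stood at -1.73 ± 0.33 in astrocytes, -1.44 ± 0.36 in ependymal cells and -2.46 ± 0.43 in OPCs. Border macrophages exceeded endothelial cells by 2.90 ± 0.40 (edgeR adjusted p = 4.6e-07), a call lost without replicate 1 (1.13). Microglia exceeded ependymal cells by 1.43 ± 0.40 (edgeR adjusted p = 0.0024), which was not called with DESeq2 (0.99) or with library totals (0.80) and came to 0.06 once microglia with disease-associated genes were left out. Without those cells the microglial level against the others was -1.12 (edgeR adjusted p = 0.0022), where all microglia gave 0.23 and no call (0.69 and a call without replicate 1). A group of 11 monocytes or neutrophils in replicate 1 held 999 CPM (95% Poisson interval 720 to 1350).

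Microglia were then compared among themselves. A cell counted as having disease-associated genes when at least 2 of Cst7, Itgax, Spp1, Gpnmb, Axl, Igf1 and Fabp5 were detected in 1500 of its UMIs, and as lacking them when none was. This gave 73, 2 and 128 cells with and 654, 82 and 483 cells without, and none of the 8 genes had a part in the choice. Apoe was 68160, 13227 and 58454 CPM in the cells with these genes and 3250, 1882 and 5784 CPM in those without, a log2 difference of 3.51 ± 0.40 (edgeR adjusted p = 7.6e-08). In replicates 1 and 3 the cells with these genes thus held Apoe at a level near that of border macrophages, and in all 3 libraries they lay above the cells without. They held 61.8%, 29.2% and 66.0% of the Apoe UMIs of all microglia but 11.3%, 6.70% and 24.9% of all their UMIs.

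Of the 7 genes tested in this split, 4 were higher and 1 lower, where 7.67% of 7527 genes tested were called higher and 12.2% lower. Plin2 was 282, 131 and 221 CPM with and 21.7, 12.6 and 34.2 CPM without (3.30 ± 0.24, edgeR adjusted p = 3.8e-12). Abca1 was 215, 361 and 190 CPM with and 99.8, 102 and 102 CPM without (1.22 ± 0.21, edgeR adjusted p = 5.1e-05). Soat1 was 145, 131 and 107 CPM with and 65.4, 92.2 and 65.1 CPM without (0.96 ± 0.21, edgeR adjusted p = 0.00088). The storage genes Soat1 and Plin2 and the exporter Abca1 thus all lay higher in each library, as Apoe did, and the ranges of the 2 sets did not overlap for any of these 4 genes. Lrp1 (-0.14 ± 0.22) and Abcg1 (0.34 ± 0.23) were not called. Clu was 59.9, 16.4 and 111 CPM with and 97.8, 96.4 and 173 CPM without (-0.63 ± 0.23, edgeR adjusted p = 0.047), a call lost in 7 of the 9 alternatives run, and its level in microglia is near that of free astrocyte RNA. The 10 astrocyte markers summed to 92.4, 148 and 94.9 CPM with and 219, 203 and 209 CPM without, so they were lower in the same cells as Clu, and their part in this difference was not tested. Apod did not pass the filter on low counts.

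The set with disease-associated genes in replicate 2 was 2 cells. Without that library Apoe was at 4.08, Plin2 at 3.40, Abca1 at 1.22 and Soat1 at 1.14, all called, and Abcg1 was called too (0.54), while Clu was at -0.44 and not called. Without replicate 1 Apoe (3.05, edgeR adjusted p = 0.11) and Soat1 (0.73) were no longer called, and Soat1 was also lost without replicate 3 (0.97) and with DESeq2 (0.90). Cells with disease-associated genes were deeper, with medians of 11330, 30469 and 12431 UMIs against 8034, 6592 and 6905. The 10 border macrophage markers summed to 335, 115 and 282 CPM in them and to 35.4, 1.40 and 14.7 CPM in the cells without, against 7694 to 9027 CPM in border macrophages, and 4 of the 10 were at 0 in them. The 10 microglial markers summed to 7826, 11208 and 9297 CPM with and 12079, 12928 and 16030 CPM without. The part of border macrophage RNA in these differences was not tested.

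**Figure D5:**
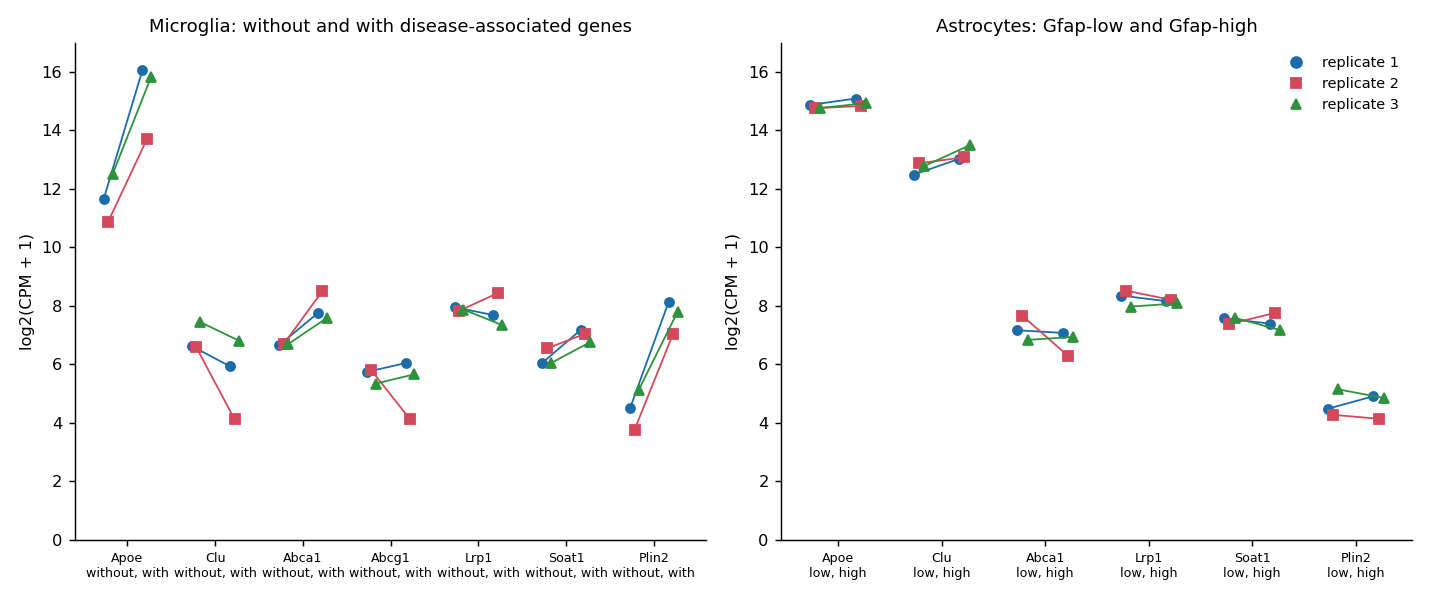
Levels as log2(CPM + 1) in microglia without and with disease-associated genes (left) and in astrocytes with low and high Gfap (right); lines join the 2 sets of a library. Apoe in microglia went from 3250, 1882 and 5784 CPM to 68160, 13227 and 58454 CPM, and Clu in astrocytes went from 5723, 7503 and 7011 CPM in Gfap-low to 8351, 8666 and 11504 CPM in Gfap-high cells.

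Other genes of lipid handling moved in the same split. Of 99 listed genes 52 were tested, and 13 (25%) were higher and 6 (11.5%) lower, where 7.67% and 12.2% of all genes were (median -0.09, against -0.11 over all genes tested). Among those higher were Lpl, the lipase that frees fatty acids from lipoproteins (369, 3233 and 487 CPM with, 23.9, 2.79 and 63.4 CPM without, 4.58 ± 0.49), and the scavenger receptors Msr1 (3.63 ± 0.37) and Olr1 (3.01 ± 0.39). Apoc1, another apolipoprotein (3.01 ± 0.50), Nceh1, a cholesterol ester hydrolase (2.14 ± 0.25), Lrpap1, a chaperone of lipoprotein receptors (1.67 ± 0.22), Lipa, the lysosomal acid lipase (1.22 ± 0.20), and Npc2, a lysosomal cholesterol carrier (0.84 ± 0.27), were higher too. Rxrg (2.23 ± 0.39), a partner of the liver X receptors, and the lipid droplet genes Plin3 (1.34 ± 0.36) and Hilpda (0.93 ± 0.24) were also higher. Lower were Abca9 (-1.62 ± 0.24), Abcb4 (-1.40 ± 0.43), Mylip, a ubiquitin ligase (-1.18 ± 0.23), Mgll, a monoglyceride lipase (-1.12 ± 0.23), Stard3 (-0.78 ± 0.22) and Sort1 (-0.72 ± 0.25).

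In astrocytes, cells with at least 3 Gfap UMIs in 1500 (314, 20 and 334 cells) were set against cells with none (333, 19 and 121 cells). Gfap encodes the intermediate filament that reactive and fibrous astrocytes hold at high levels. Clu was 8351, 8666 and 11504 CPM in Gfap-high and 5723, 7503 and 7011 CPM in Gfap-low cells, higher by 0.55 ± 0.09 (edgeR adjusted p = 7.0e-05). Apoe was 34857, 29192 and 31244 CPM against 29961, 27749 and 27886 CPM, higher by 0.21 ± 0.07 (edgeR adjusted p = 0.044). Clu was thus higher in Gfap-high cells of every library without overlap of the ranges, and Apoe was higher within each library although the ranges overlapped. Of 6 genes tested these 2 were called, where 6.42% of 9133 genes tested were called higher and 5.61% lower. Of those calls 53.4% were higher, and 67.5% with DESeq2. Abca1 (-0.10 ± 0.16), Lrp1 (-0.06 ± 0.13), Soat1 (-0.18 ± 0.14) and Plin2 (0.12 ± 0.26) were not called, and Apod and Abcg1 did not pass the filter.

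The Clu call held under every alternative but the fit without the library block (0.56, edgeR adjusted p = 0.13). The Apoe call was lost without the block (edgeR adjusted p = 0.50), with DESeq2 (DESeq2 adjusted p = 0.22), with library totals, with 1 Gfap UMI as the lower limit of the high set, and without replicate 1 or 3. Gfap-high cells were deeper, with medians of 5304, 8275 and 9180 UMIs against 4248, 4669 and 4000, and the 10 ependymal markers summed to 27.1, 11.1 and 41.4 CPM in them against 17.05, 18.3 and 27.2 CPM. The 10 endothelial markers summed to 89.0, 210 and 79.1 CPM in Gfap-high and 123, 431 and 130 CPM in Gfap-low cells, the pericyte markers to 29.98, 22.1 and 47.8 against 70.6, 73.3 and 55.8 CPM, and the microglial markers to 99.0, 133 and 137 against 113, 211 and 179 CPM. All 3 sums were thus lower in Gfap-high cells of each library, and their part in the differences was not tested. Of the listed lipid genes 58 were tested, and 3 (5.17%) were higher and 2 (3.45%) lower. Pltp (a phospholipid transfer protein, 0.66 ± 0.18), Npc2 (0.49 ± 0.14) and Scarb2 (0.44 ± 0.14) were higher, while Mfsd2a, a transporter of lysophospholipids (-0.91 ± 0.15), and Gramd1a (-0.69 ± 0.23) were lower. Mfsd2a stood at 92.3, 94.1 and 76.5 CPM in Gfap-high and 152, 183 and 176 CPM in Gfap-low cells.

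The wider pathway was read from 6 lists of 99 genes (other apolipoproteins, lipid transporters, lipoprotein receptors, particle remodelling, LXR and sterol sensing, and lipid storage), of which 82 passed the filter. In astrocytes 38 (46.3%) were higher and 15 (18.3%) lower, where 31.2% and 19.4% of all genes were, with a median of 0.41 where all genes had 0.12. The highest were Cideb, a lipid droplet protein (6.37 ± 0.39, 30.8 CPM), Lcat, which esterifies cholesterol on particles (5.03 ± 0.16, 245 CPM), and Sorl1, a sorting receptor (5.03 ± 0.24, 131 CPM). The lowest were Abca9 (-3.83 ± 0.57), Cyp27a1, a sterol hydroxylase (-3.65 ± 0.60), and Mylip (-3.19 ± 0.23). The list of other apolipoproteins goes by gene name and includes Apoo and Apool, so it is not confined to proteins of lipoprotein particles. It had 4 of 5 tested genes higher in astrocytes and 4 of 5 in ependymal cells, where 31.2% and 30.3% of all genes were.

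Microglia had 31 list genes (37.8%) higher and 19 (23.2%) lower, where 28.9% and 17% of all genes were (median 0.02, all genes 0.01). Trem2, a receptor for lipids and for the product of Apoe, was at 6.39 ± 0.19 (2431 CPM), Lpl at 5.83 ± 0.24 and Abca9 at 4.86 ± 0.21, and Pltp (-3.34 ± 0.29), Mfsd2a (-2.89 ± 0.52) and Cyp7b1 (-2.34 ± 0.41) were lowest. In border macrophages 18 (21.95%) were higher and 7 (8.54%) lower, against 13% and 7.05% of all genes, led by the scavenger receptors Cd36 (11.04 ± 0.51, 268 CPM) and Msr1 (8.25 ± 0.49, 128 CPM) and by Cyp27a1 (5.30 ± 0.43, 105 CPM). G0s2 and Lrp8 had no UMI in this class, where 3 UMIs would be 7.45 and 30.6 CPM in replicates 1 and 3, and Mgll stood at -3.51 ± 0.59. The list median was -0.22 in border macrophages (all genes -0.36). It was 0.37 once the 17 list genes without a UMI were set at the level of 3 UMIs, an upper bound not scaled by TMM. All genes were not treated in this way, so 0.37 cannot be set against -0.36.

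Endothelial cells had 23 list genes (28.0%) higher and 19 (23.2%) lower, where 31.3% and 14.9% of all genes were (median -0.37, all genes 0.12). Lsr, a lipoprotein receptor (6.52 ± 0.19, 315 CPM), Abcg2 (5.71 ± 0.15, 703 CPM) and the receptor Lrp8 (4.94 ± 0.23, 133 CPM) were highest, and Gramd1b (-4.11 ± 0.65), Abcd2 (-3.96 ± 0.36) and Abca9 (-3.94 ± 0.52) lowest. In ependymal cells 27 (32.9%) were higher and 21 (25.6%) lower, near the 30.3% and 20.4% of all genes (median 0.14, all genes 0.04). The leading genes there were Plin5, another droplet coat protein (9.15 ± 0.35, 106 CPM), Lrp2, also called megalin (8.92 ± 0.42, 53.3 CPM), and Dgat2, which makes triglyceride (5.98 ± 0.21, 208 CPM), so the droplet genes Plin5 and Dgat2 were high where Plin2 was low. Cyp27a1 (-4.01 ± 0.72), Abcg2 (-3.17 ± 0.37) and Lipa (-2.78 ± 0.27) were lowest.

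Pericytes had 16 list genes (19.5%) higher and 9 (10.98%) lower, against 12.1% and 6.82% of all genes (median 0.04, all genes -0.12). The list median was 0.28 with the 8 genes without a UMI at the level of 3 UMIs, for which all genes have no like value. Abca8a (6.18 ± 0.53, 65.2 CPM), G0s2, an inhibitor of triglyceride lipase (4.63 ± 0.38, 150 CPM), and Nr1h3, which encodes the liver X receptor alpha (4.36 ± 0.43, 86.0 CPM), were highest. Nr1h3 was thus called higher in the class that held a single UMI of Abca1, a known target of its product. Sorl1 had no UMI in pericytes, and Gramd1b (-2.62 ± 0.91) and Mfsd2a (-2.61 ± 0.75) were low. In OPCs 20 (24.4%) were higher and 27 (32.9%) lower, against 25.6% and 18.9% of all genes (median -0.45, all genes 0.03). With the 9 genes without a UMI at the level of 3 UMIs the list median was -0.09, again without a like value for all genes. Of the 20 lipoprotein receptor genes tested, which leave out Lrp1, 11 were lower there and 2 higher, among them Vldlr. Abca6 (5.79 ± 0.69, 25.6 CPM), Vldlr (5.51 ± 0.40, 72.8 CPM) and G0s2 (4.13 ± 0.29, 121 CPM) were highest, Msr1 had no UMI, and Pltp (-4.13 ± 0.35) and Plin3 (-3.66 ± 0.35) were lowest.

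The genes most alike to each of the 8 were taken by Pearson's r of log2 CPM over the 20 profiles of library and class, as a description, since the profiles share libraries and classes. Apoe was closest to Sdc4 (r = 0.87), Npl (0.86) and Smpdl3b (0.85), and Clu to Mlc1 (0.96), Cbs (0.96) and Mt1 (0.95). Apod was closest to Utrn (0.94), Foxc1 (0.92) and Mgp (0.90). For Abca1 the closest were Hps1 (0.92), Galc (0.91) and Id2 (0.90), and for Abcg1 they were Tmed9 (0.90), Jpt1 (0.89) and Tra2b (0.88). Lrp1 was closest to Tns3 (0.96), Parp8 (0.94) and Spred1 (0.89), Soat1 to Vegfb (0.96), Sema4b (0.89) and Fgd4 (0.89), and Plin2 to Ifi211 (0.85), Ccl8 (0.84) and Cd209f (0.84). Among the 8 genes themselves, Apoe and Soat1 had the highest correlation (0.80) and Apod and Soat1 the lowest (-0.77), and Abca1 and Abcg1 had 0.08.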

How the data were processed

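The deposited tables hold raw UMI counts per gene and barcode, which the authors produced with Cell Ranger on the mm10 build according to the submitters' processing notes. Its version was not given in the sources used. Gene symbols whose hyphens had become dots were restored (2411 of 31053), and 30531 symbols were found in the GENCODE M21 annotation, which gave identifiers and 1-based coordinates.

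Barcodes were kept with at least 500 UMIs, 300 genes and at most 20% mitochondrial UMIs (6412, 954 and 5065 in replicates 1, 2 and 3). Scrublet (scanpy 1.11.5, assumed doublet rate 0.06) then removed 190, 8 and 133 doublets. A cell joined a class when at least 3 distinct markers of it were detected and at least 2 times as many as of any other of 16 classes. The median cell of a class held 1698 to 7749 UMIs.

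UMIs were summed per library and class (at least 10 cells, 20 profiles) and tested with edgeR 4.0.16 in R 4.3.3 (quasi-likelihood test, TMM, filterByExpr, library block, 11 residual degrees of freedom). Each split of microglia or astrocytes was a smaller fit of its own, with 6 profiles and 2 residual degrees of freedom. No minimum of cells was set there, and the smallest profile held 2 cells. The block pairs profiles of the same library, whose cells came from the same suspension. The test was checked on simulated data for microglia against the others only. That simulation held no library effect and gave all classes a common base composition. It therefore did not cover the splits or the shifts from scaling. Intervals and floors (3 UMIs) cover counting error only. DESeq2 1.42.0 was an alternative, beside other scalings, filters and left-out replicates. Shares of cells came from cells thinned at random (seed 1) to 1000 UMIs.

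The 8 genes, the lists and the markers were chosen with earlier results of these data known. Of the lists, the text names in each class the 3 highest and 3 lowest called genes that had the same sign throughout the libraries and 20 CPM or more in the class or the others, and in the splits every called gene except those not reported here. For likeness it names the 3 highest correlations, leaving out markers and predicted genes. Clec7a, the remaining gene of the set that split microglia, was not analysed here.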

Additional observations from a re-analysis of the deposited data

How the results depend on the processing

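The limits are set by depth and cell number: replicate 2 held 946 of the 12100 cells kept, and border macrophages rest on 2 libraries. Genes with a few UMIs in a class (Abca1 and Abcg1 in pericytes, Abcg1 in astrocytes, Apod in border macrophages) have wide errors. Results on the 8 genes were recomputed under other scalings, tools, filters, class rules and left-out libraries. In the class contrasts 759 of 784 recomputed values had the same direction and side of the threshold, in the neighbour comparisons 266 of 294 and in both splits 94 of 116, and 316 of 348 recomputed counts stayed within 1.5 times. The cause of each change below was not tested. For values without a test, 96 of 448 shares of cells and 111 of 283 free RNA ratios moved by more than their spread. With class markers as the measure, 41 ratios moved and 7 stayed, and with further microglia genes 37 moved and 3 stayed. With further astrocyte genes 23 moved and 19 stayed. Without replicate 1 all 47 ratios stayed, and without replicate 2 or 3 only 1 ratio moved each time. Without thinning 50 shares moved and 6 stayed. All 56 shares stayed without each replicate in turn, but the rule fixed that outcome. A mean of 2 or 3 libraries cannot move by more than their spread when 1 of them is left out. The shares without a replicate are thus no check on single libraries, and the ratios without a replicate are a weak check.

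With DESeq2 0 of the 8 genes were lower in border macrophages and 1 was higher in endothelial cells, 661 genes in all were called in the microglial split (1496 with edgeR) with 0 of the 8 lower, and 271 in the Gfap split (1098 with edgeR) with 1 of the 8 higher. Without the replicate block, which pairs the profiles of a library, 0 of the 8 genes were lower in border macrophages and in the microglial split, and 87 genes were called in the Gfap split with 0 of the 8 higher. With library totals only, 3 of the 8 genes were lower in OPCs and 1 was higher in Gfap-high cells. Without the filter on low counts, or with 1 or more disease-associated genes as the limit, 0 of the 8 were lower in the microglial split. With 1 or more Gfap UMIs as the limit 665 genes were called and 1 of the 8 was higher.

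Leaving out each library in turn gave 948 (without replicate 1) to 2631 genes called in border macrophages (2619 with all), with 3 to 5 of the 8 higher and 0 to 1 lower. It gave 1 to 2 of the 8 higher in endothelial cells, and 3745 to 5725 genes called in OPCs (5823 with all) with 3 to 5 of the 8 lower. In the microglial split 452 to 2109 genes were called, with 2 to 5 of the 8 higher and 0 lower, and in the Gfap split 223 to 1581, with 1 to 2 of the 8 higher.

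Directions turned in these cases. For microglia against the others, Apoe was -0.53 and Plin2 -1.12 without the cells with disease-associated genes, and Plin2 was -0.34 with library totals and -0.21 to 0.69 over the left-out libraries. Over the left-out libraries, Apod in border macrophages ran from -1.13 to 0.81, Abca1 in endothelial cells from -1.25 to 0.094, and Plin2 in pericytes from -0.42 to 0.52. In the splits, Lrp1 in microglia ran from -0.19 to 0.10, and in astrocytes Abca1 ran from -0.28 to 0.023 and Plin2 from -0.26 to 0.41. For Apoe, ependymal cells against microglia were at 0.067 with RLE and 0.069 with DESeq2, at 0.49 with library totals and at 1.496 without the cells with disease-associated genes (edgeR adjusted p = 3.1e-05), and the left-out libraries gave -0.77 to 0.39.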
